A study of Mus musculus with 4 samples.

Results

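Open chromatin outside genes but close to them was mapped in natural killer (NK) cells of the mouse by DNase-seq, an assay that finds DNA exposed to the nuclease DNase I by sequencing the ends of the cut fragments. The regions described here are intergenic and gene-near. They were made by joining overlapping or touching peaks of 4 libraries on the 19 autosomes. A region was kept if it overlapped no annotated gene of any type, lay more than 1 kb from every gene end, and had the nearest protein-coding 5' end 1 to 50 kb away. Of 75963 autosomal regions, 11499 met these conditions, or 15.1%. For comparison, 23422 regions were intronic, 19872 lay at promoters (within 1 kb of a protein-coding 5' end) and 4274 were remote, more than 100 kb from any protein-coding 5' end.

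The cells were primary NK cells of virgin adult female mice of the strain B6CASTF1/J, aged 2 months, with no treatment named in the labels. This F1 hybrid carries 1 set of chromosomes from C57BL/6J and 1 from CAST, and the peaks are placed on mm10, the C57BL/6J reference, so that reads of the CAST chromosomes were also placed on it. The labels number the libraries as biological replicates 1 to 4 and give each its own biosample but the same donor identifier. Neither tissue nor sorting scheme is named. All 4 form a single group, so there is no treated or control arm, and each SD below reflects variation from library to library, which could be technical in part. Autosomal peaks numbered 43014, 46244, 67437 and 35219 in replicates 1 to 4, and read depth is not given in the files used here.

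The label was set against marker genes. Of 10 NK markers, 6 had a promoter peak in at least 3 libraries and none lacked one in every library. Of 8 T cell markers, Cd3e, Cd3d, Cd4, Cd8a, Cd8b1 and Cd28 had no promoter peak in any library and 1 had one in at least 3. Of 6 myeloid markers, Csf1r, Lyz2, S100a8, Cd14 and Mpo had none in any library and 1 had one in at least 3. Promoter peaks were found at 4, 5, 2 and 5 of 6 B cell markers in replicates 1 to 4, at 3, 3, 2 and 3 of 4 stromal markers and at 1, 1, 1 and 0 of 3 erythroid markers. A peak gives no share of cells, so the number of cells of other types behind these peaks was not measured. In a bulk sample, few cells with an open site and a site less open in each cell cannot be told apart.

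Enhancers and insulators are stretches of DNA at which sequence-specific proteins displace nucleosomes, which makes the DNA sensitive to DNase I. Many lie between genes, and those near a gene often act on it, although an enhancer can also skip the nearest gene and act on another. In NK cells the families of T-box, RUNX and ETS factors are known to drive cytotoxic and cytokine genes, and CTCF binds insulators and the bases of chromatin loops in most cell types. The gene named beside a region below is only the gene with the nearest 5' end.

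The sequences of 8 regions are shown for the kinds of DNA that the results below turn on. Each is the central 200 bases of the region on the plus strand of mm10, from RefSeq's GRCm38.p6 assembly, written 5' to 3'. The first set holds 3 of the strongest regions with the CTCF consensus. Capitals mark matches, on either strand, to CTCF and to the ETS motif ACNGGAAG, and the sequence near Psrc1 holds a CTCF match on each strand, at separate places. The region near Rnase12 also overlaps a tRNA gene, which is not marked.

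Rnase12 chr14:51064831-51065030: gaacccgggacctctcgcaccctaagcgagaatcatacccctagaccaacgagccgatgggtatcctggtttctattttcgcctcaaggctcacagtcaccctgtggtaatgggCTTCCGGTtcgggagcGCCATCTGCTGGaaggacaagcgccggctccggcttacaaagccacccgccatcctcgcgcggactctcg
Stard10 chr7:101310721-101310920: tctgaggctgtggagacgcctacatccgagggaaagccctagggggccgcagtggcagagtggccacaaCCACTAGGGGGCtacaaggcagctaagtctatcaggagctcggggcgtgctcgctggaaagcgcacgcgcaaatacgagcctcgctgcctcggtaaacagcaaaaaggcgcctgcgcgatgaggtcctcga
Psrc1 chr3:108389321-108389520: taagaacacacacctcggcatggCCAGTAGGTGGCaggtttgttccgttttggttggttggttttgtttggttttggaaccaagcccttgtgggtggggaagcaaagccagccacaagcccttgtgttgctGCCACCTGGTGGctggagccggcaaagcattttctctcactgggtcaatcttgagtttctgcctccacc

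The second set is the strongest region near each of 3 genes of NK cell function: Fasl, the death ligand, Ifng, the cytokine interferon gamma, and Cxcr4, a chemokine receptor. Capitals mark ETS matches (ACNGGAAG, either strand) and AP-1 matches (TGANTCA, a palindrome).

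Fasl chr1:161766771-161766970: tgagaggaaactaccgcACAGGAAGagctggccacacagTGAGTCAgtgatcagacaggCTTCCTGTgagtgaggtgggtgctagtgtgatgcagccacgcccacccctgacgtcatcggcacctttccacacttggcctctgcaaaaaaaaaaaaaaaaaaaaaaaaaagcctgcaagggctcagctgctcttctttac
Ifng chr10:118419151-118419350: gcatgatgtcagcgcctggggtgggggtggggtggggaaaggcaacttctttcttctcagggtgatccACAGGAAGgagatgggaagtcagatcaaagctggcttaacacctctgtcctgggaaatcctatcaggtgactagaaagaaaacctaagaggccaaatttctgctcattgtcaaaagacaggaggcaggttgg
Cxcr4 chr1:128614951-128615150: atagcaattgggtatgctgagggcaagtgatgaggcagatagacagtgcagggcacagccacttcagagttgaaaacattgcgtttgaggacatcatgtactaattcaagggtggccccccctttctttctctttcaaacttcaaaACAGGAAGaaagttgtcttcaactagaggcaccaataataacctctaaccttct

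The third set shows a tRNA gene inside a region, with a tRNA-His gene of the minus strand in capitals near Shf, and the region with the highest signal, near Igf2bp3, which held no match to CTCF, ETS, RUNX, T-box or AP-1 and has no capitals.

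Shf chr2:122377371-122377570: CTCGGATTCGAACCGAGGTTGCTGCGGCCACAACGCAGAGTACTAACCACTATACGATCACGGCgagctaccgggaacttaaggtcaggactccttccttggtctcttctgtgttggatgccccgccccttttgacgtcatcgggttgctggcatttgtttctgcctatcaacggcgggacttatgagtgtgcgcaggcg
Igf2bp3 chr6:49236431-49236630: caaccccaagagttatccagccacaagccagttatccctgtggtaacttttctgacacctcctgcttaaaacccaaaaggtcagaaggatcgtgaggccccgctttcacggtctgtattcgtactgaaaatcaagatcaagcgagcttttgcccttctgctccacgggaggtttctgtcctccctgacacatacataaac

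The regions were dense close to genes and became sparser with distance. Eligible sequence, meaning all autosomal bases that meet the same conditions on genes and distance, came to 371.679 Mb. Regions numbered 54.4 per Mb of it at 1 to 2 kb from the nearest 5' end, 37.2 at 2 to 5 kb, 32.5 at 5 to 10 kb, 30.6 at 10 to 20 kb, 29.0 at 20 to 30 kb and 27.2 at 30 to 40 kb, and fewer still at 40 to 50 kb. The fall was steepest within the first 5 kb and slow beyond it. Single libraries showed the same order at the ends of the range, with 28.6, 31.4, 47.9 and 20.4 peak-holding regions per Mb at 1 to 2 kb in replicates 1 to 4 and 11.9, 13.6, 21.5 and 8.79 at 40 to 50 kb.

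Counted as peaks in these regions, the density between 1 and 10 kb was 20.4, 22.4, 33.5 and 15.2 per Mb in replicates 1 to 4. Between 25 and 50 kb it was 14.0, 15.3, 24.1 and 10.4. Near density was higher in every library, and the ratio was 1.44 ± 0.0353 (SD, n = 4). This is 1 of 6 comparisons made within each library. An exact two-sided sign-flip permutation test over 4 libraries gives at smallest p = 0.125, which all 6 reached with the same sign in 4 of 4 libraries (0.125 after Benjamini-Hochberg adjustment too), so none can pass 0.05 and each is given by its size and spread. When regions were limited to 25 kb, with 10 to 25 kb as the far range, the ratio was 1.21. Signal was lowest far from genes but did not fall steadily. The median peak signal, the value the authors give each peak, was 1.02, 1.03, 0.955 and 0.932 in replicates 1 to 4 at 1 to 2 kb, 1.10, 1.14, 1.03 and 1.01 at 2 to 5 kb and 0.858, 0.785, 0.731 and 0.759 at 40 to 50 kb.

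**Figure D1:**
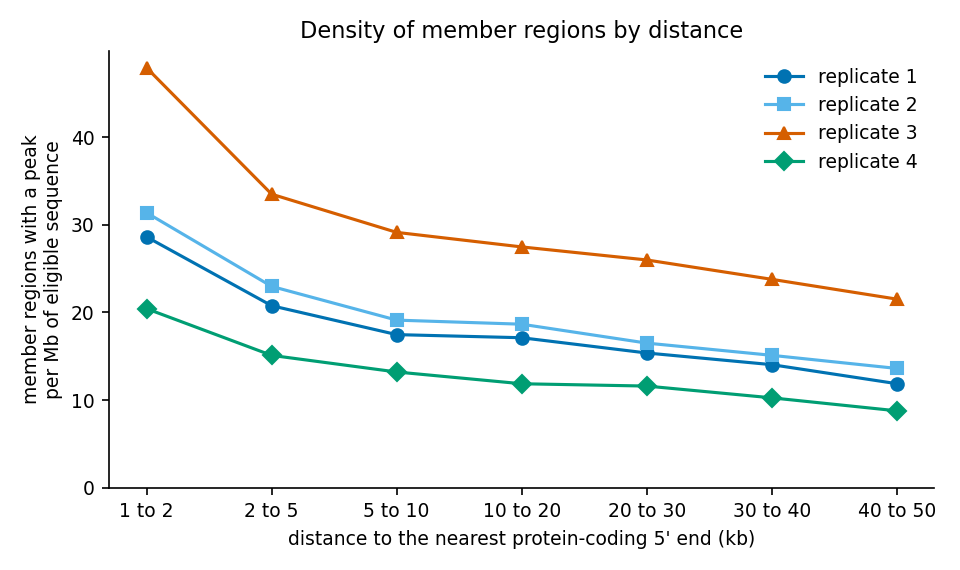
Gene-near intergenic (member) regions with a peak per Mb of eligible sequence (y axis) by distance in kb from the nearest protein-coding 5' end (x axis), with 1 line for each of the 4 libraries. Every line falls from its highest value at 1 to 2 kb to its lowest at 40 to 50 kb, and replicate 3 lies above the others throughout.

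Side mattered little. Upstream of the nearest 5' end lay 8785 regions, 76.4%, while 75.9% of the eligible sequence lay there, and the other 2714 regions lay beyond the 3' end of the gene. Chromosomes differed more, from 23.2 regions per Mb of eligible sequence on chromosome 16 to 48.5 on chromosome 11. Regions came in groups: 31.2% had another within 1 kb and 63.4% within 10 kb.

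Genes whose own promoter was open had more peaks in these regions for the space around them. For genes with a promoter peak in a library, replicates 1 to 4 held 26.5, 28.8, 43.2 and 19.7 peaks of these regions per Mb of eligible sequence. For genes without a promoter peak the densities were 10.2, 10.9, 15.7 and 7.40. The ratio was 2.59, 2.65, 2.75 and 2.66, with a mean of 2.66 ± 0.0634 (SD, n = 4), so the libraries differed little in it.

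Most regions were either common to the libraries or held by 1 library. All 4 libraries had a peak in 3694 regions (32.1%, where 34.9% of all autosomal regions did), and at least 3 libraries in 5478 (47.6%, against 47.1%). These shares lie near the background. A further 1457 regions had peaks in 2 libraries and 4564 (39.7%) in 1. Replicate 3 alone accounted for 3507 of the latter, replicate 2 for 516, replicate 1 for 305 and replicate 4 for 236. Replicate 3 has the most peaks, and the 4 libraries covered 53.5%, 58.5%, 89.0% and 39.0% of the regions in turn. Shares at the edges of the definition were similar. Just inside the 50 kb limit, at 49 to 50 kb, 27.6% of 76 regions were in all 4 libraries, and just outside it, at 50 to 51 kb, 24.1% of 108. Within 200 bp of the 1 kb limit from gene ends the shares were 32.2% of 369 regions inside and 33.9% of 239 outside.

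The authors also list bases whose false discovery rate (FDR) is below 0.05, which shows how close a missing peak came. Of the regions held by 1 library, 3905 (85.6%) had no such base in any other. Of the regions missing from a single library, 35.2% had an FDR-listed base there if that library was replicate 1, 36.6% if replicate 2, 21.6% if replicate 3 and 9.40% if replicate 4. Replicate 4 was the missing library for 1489 of 1784 regions held by exactly 3, so most gaps were in replicate 4 and without an FDR-listed base.

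Among peaks of each library, those in gene-near intergenic regions were shared more often than intronic ones. In replicates 1 to 4, 60.5%, 55.4%, 36.6% and 82.8% of the peaks there lay in regions with a peak in all 4 libraries. For intronic peaks the shares were 55.6%, 50.2%, 27.7% and 76.0%. The difference was 6.49 ± 1.82 percentage points (SD, n = 4) and was largest in replicate 3.

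Signal was also higher than in introns in each library, by a small factor. The median signal in replicates 1 to 4 was 1.01, 0.997, 0.914 and 0.913 here and 0.870, 0.846, 0.756 and 0.826 in introns. The ratio was 1.16 ± 0.0438 (SD, n = 4). Remote regions had lower medians, 0.588, 0.584, 0.465 and 0.509, and promoters higher ones, 2.00, 2.37, 2.13 and 2.12. Gene-near intergenic regions thus ranked between promoters and introns in each library. The factor was 1.13 when regions with tRNA genes and CpG-rich regions were left out of both classes, a check added after seeing the data. Among regions in all 4 libraries, also a later check, the medians were 1.45, 1.54, 2.28 and 1.04 here. In introns they were 1.27, 1.35, 2.20 and 0.961, so the excess was smaller in replicates 3 and 4 than in 1 and 2.

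**Figure D2:**
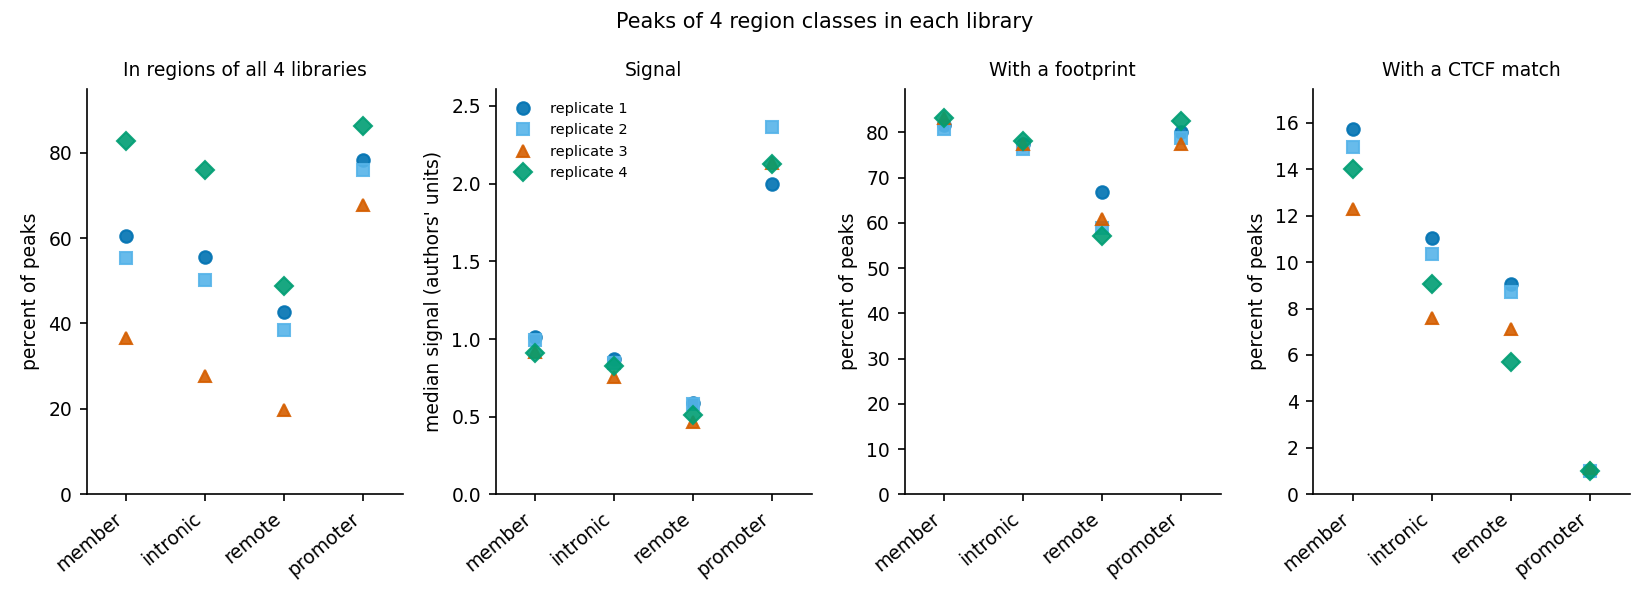
Percent of peaks in regions found in all 4 libraries, median signal in the authors' units, percent of peaks with a footprint and percent with a CTCF match (y axes of the 4 panels) for gene-near intergenic (member), intronic, remote and promoter peaks (x axes), with 1 point for each library. The gene-near intergenic point lies above the intronic point of the same library in every panel, by 6.49 percentage points in the first and 1.16-fold in signal on average.

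Widths were those of short sites. The median region was 200 bp wide, with 86 and 360 bp as the 10th and 90th percentiles and 1140 bp as the longest, and intronic regions had the same median. Over the 3694 regions with a peak in all 4 libraries, the Spearman rank correlation of signals was 0.924 between replicates 1 and 2, 0.847 between 3 and 4, 0.804 between 2 and 4, 0.780 between 1 and 3, 0.770 between 1 and 4 and 0.761 between 2 and 3. These points share the selection of regions seen in every library, so the values only describe which libraries rank regions most alike.

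A footprint is a short stretch of protected bases inside a DNase-sensitive site, of the kind left by a bound protein. In replicates 1 to 4, 81.6%, 80.7%, 83.2% and 83.2% of peaks in gene-near intergenic regions overlapped a deposited footprint by at least 1 bp, against 77.4%, 76.3%, 77.5% and 78.1% of intronic peaks. The difference was 4.84 ± 0.663 percentage points (SD, n = 4), and it was 2.56 ± 1.16 among regions with a peak in all 4 libraries, likewise a check added later. Remote peaks held a footprint in 60.9% of cases on average and promoter peaks in 79.7%. Of the 3694 regions with a peak in all 4 libraries, 3026 held a footprint in all 4 as well, or 81.9%, where the share over all such autosomal regions was 81.4%. Only 3 of the 3694 held a footprint in none.

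The CTCF consensus was more frequent in these regions than in introns in each library. It was searched for on both strands in the central 150 bp of each peak, and 15.7%, 15.0%, 12.3% and 14.0% of peaks held it in replicates 1 to 4. In introns the shares were 11.0%, 10.3%, 7.59% and 9.07%. The difference was 4.73 ± 0.130 percentage points (SD, n = 4), nearly the same in each library. Remote peaks held it in 7.64% and promoter peaks in 1.04% of cases on average.

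Over regions rather than peaks, 1270 of the 11499 held the CTCF consensus in their central 150 bp. Of these, 48.5% had a peak in all 4 libraries, against 30.1% of the others. Regions held by 1 library carried the consensus in 4.03% of cases and those held by all 4 in 16.7%. Over all 75963 autosomal regions the share was 5.90%, and over those in all 4 libraries it was 7.66%. In 21331 windows of the same length placed 1 kb to either side of the regions, the share was 0.0516%. Windows that overlapped any autosomal region with a peak were left out, so this background holds no called site. On average 64.9% ± 6.86 of the CTCF matches in regions with a peak lay for the most part in a footprint (SD, n = 4). Footprints in these regions came to 10.6% ± 1.33 of their bases (SD, n = 4). The sequences near Stard10 and Psrc1 above are examples of the consensus, and whether their matches lie in a footprint is not given.

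The ETS, RUNX and T-box motifs had lower shares here than in introns, a description over regions with no test. Among regions with a peak in all 4 libraries, the ETS motif ACNGGAAG was found in 7.53% of gene-near intergenic, 10.1% of intronic and 6.54% of promoter regions, in 7.70% of all autosomal regions in all 4 libraries and in 2.53% of the windows 1 kb away. For RUNX (TGTGGTT) the shares were 7.93%, 10.1%, 1.85%, 5.69% and 4.34% in the same order. For T-box (AGGTGTGA) they were 1.35%, 2.08%, 0.439%, 1.14% and 0.727%. All 3 were thus more common than in those windows, which leave out sites with a peak, and less common than in introns.

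The AP-1 motif TGANTCA was found in 7.01% of gene-near intergenic and 8.02% of intronic regions, with 4.12% in the windows 1 kb away. The E-box CAGCTG was found in 12.2%, 13.1% and 6.75%. The IRF motif GAAANNGAA, at 4.52% and 4.47%, was no more frequent than in the windows, at 4.94%. The windows had a lower GC content, with a median of 46.0% against 52.0% in the regions, and the part of base composition in these contrasts was not tested. Each motif was searched on both strands, and matches of different motifs may overlap.

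Shares of ETS matches were highest far from the gene, while those of CTCF were level. Of regions in all 4 libraries, 6.08% held the ETS motif at 1 to 5 kb, 5.59% at 5 to 10 kb, 7.56% at 10 to 25 kb and 9.67% at 25 to 50 kb. CTCF stood at 17.0%, 16.9%, 17.6% and 15.1% over the same ranges, and CpG-rich regions at 15.8%, 16.5%, 12.6% and 11.2%. Median GC content was 51.8%, 52.0%, 52.1% and 52.0%, so the ranges hardly differed in it. No test was made of these shares.

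The base composition was that of distal sites rather than promoters. The median GC content was 50.5%, as in introns, where all autosomal regions together had 52.7%. CpG-rich regions, with an observed over expected CpG ratio of at least 0.6, numbered 1086 (9.44%), and 45.9% of them had a peak in all 4 libraries, against 30.7% of the rest. Repeat-masked bases made up at least 50% of 1085 regions (9.44%), against 8.16% of intronic and 6.68% of all autosomal regions.

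The strongest regions were a different kind of sequence from the typical one. Of the 100 regions with the highest mean signal among those in all 4 libraries, 67 were CpG-rich, 21 overlapped a tRNA gene, 15 lay within 500 bp of the 5' end of a RefSeq transcript and 4 held the CTCF consensus. Of all 3694, the numbers were 499, 96, 172 and 616. The top of the ranking was therefore richer in CpG-rich regions and tRNA genes and poorer in CTCF. Over all 3694, the relation of CTCF to signal differed by library. Median signals in replicates 1 to 4 were 1.59, 1.70, 2.02 and 0.951 with the consensus and 1.42, 1.53, 2.35 and 1.07 without. Overall 400 regions (3.48%) lay within 500 bp of a RefSeq 5' end that the gene annotation used here does not place there, and 43.0% of them were in all 4 libraries, against 31.7% of the others. RefSeq long noncoding RNAs overlapped 1379 regions.

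The highest signal of all belonged to a 220 bp region 21.5 kb upstream of Igf2bp3, an RNA-binding protein gene of fetal tissues, at 33.0, 34.1, 40.9 and 37.7 in replicates 1 to 4, with a mean of 36.4 ± 3.56 (SD). It was the highest of the 11499 regions in every library. It is not CpG-rich, and 168 of its bases have near copies elsewhere on the assembled chromosomes. These were at 99.4% identity on chromosome 12 (chr12:78350950-78351117) and at 98.8% on chromosome 9 (chr9:123461812-123461979). Hits on other scaffolds were left out of the search, so further copies there were not counted. Copies missing from the assembly could not be found at all, and what the sequence derives from was not examined. Reads that fit several copies cannot be placed with certainty, and how the authors placed them was not found in the headers or labels. The value for this region, and whether this site itself is open, are therefore uncertain.

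The next 2 lay 6.26 kb upstream of Trappc9, a subunit of a vesicle transport complex, at 13.4, 17.7, 23.7 and 24.1, and 22.4 kb from the 5' end of Ccne1, the cell cycle regulator cyclin E1, beyond its 3' end, at 11.3, 14.8, 21.2 and 22.7. Both were lowest in replicate 1 and high in replicates 3 and 4. The other 7 of the 10 strongest lay nearest to Zfp239, Pde4a, Cirbp, Zfp395, Trpv4, 1810010H24Rik and Shf. Their mean signals ran from 14.5 near Shf to 17.5 near Zfp239, all were CpG-rich, and those near 1810010H24Rik and Shf overlapped genes for tRNA-Arg and tRNA-His. Just outside these 10 stood a region near Ptma at 14.5 and 1 near Foxk1 at 14.4.

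**Figure D3:**
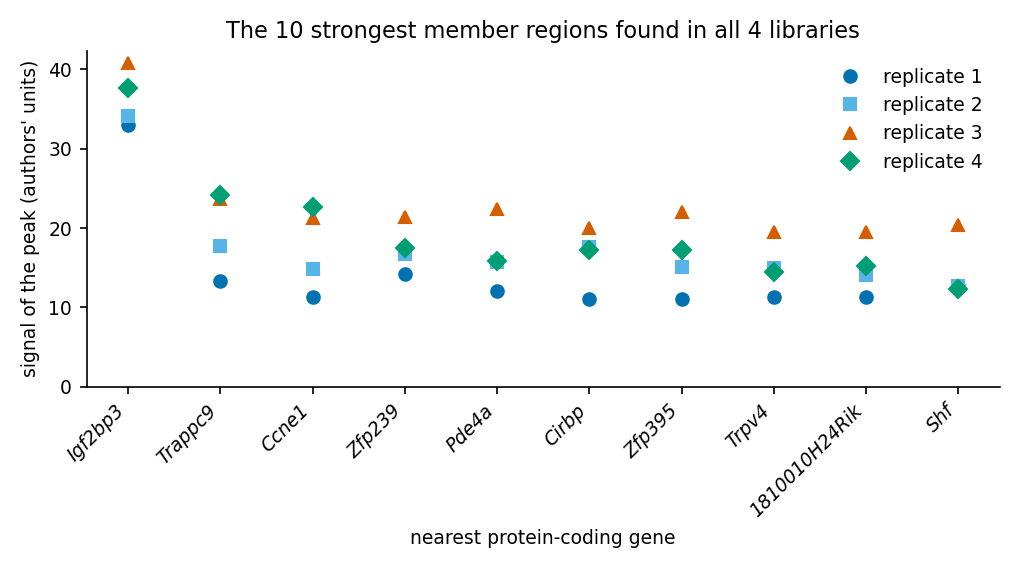
Signal in the authors' units (y axis) of the 10 regions with the highest mean signal among those in all 4 libraries, by nearest gene (x axis), with 1 point for each library. The region near Igf2bp3 stands at 33.0 to 40.9, and the other 9 lie between 11.0 and 24.1.

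Nuclear tRNA genes, which RNA polymerase III transcribes from promoters inside the gene, are absent from GENCODE's gene set and so fall between genes here. RefSeq tRNA genes overlapped 122 of the regions, and of those 96 (78.7%) had a peak in all 4 libraries, against 31.6% of the other regions. Only 4 intronic and 1 remote regions overlapped a tRNA gene. Median signals over regions in all 4 libraries were 3.18, 3.44, 5.09 and 2.54 in replicates 1 to 4 with a tRNA gene and 1.43, 1.54, 2.24 and 1.02 without, higher with tRNA genes in each library. They came in clusters, with 9 of the 12 regions near Trim27 and 6 of the 13 near Abt1 on chromosome 13. tRNA genes of 1 type are near copies of each other. None of the 21 regions with a tRNA gene among the 100 strongest had a copy on the assembled chromosomes. A copy had to match at least 70% of the region's length with at least 95% identity. A copy of the tRNA gene without its flanks could thus go unseen, so this does not show that the genes lack copies. Reads within the gene itself may still fit several copies, so the signal of a single copy is uncertain.

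RefSeq's curated enhancers, most of them from VISTA (tests of reporter activity in mouse embryos) and single-locus studies, overlapped 55 of the regions, 29 of them in all 4 libraries. The 55 were 0.478% of the regions, near the shares of intronic (0.397%) and remote (0.445%) regions. The strongest lay 18.3 kb upstream of Fos, an AP-1 subunit, at 10.3, 11.0, 16.6 and 11.9 in replicates 1 to 4. A region near Btg2, an antiproliferative gene, had 5.08, 7.14, 9.07 and 8.53 (chr1:134092981-134093320), and a region near Wnt10a, a Wnt ligand, had 3.21, 3.78, 5.22 and 3.77. These enhancers are drawn from many tissues and were not chosen for NK cells.

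The regions were spread unevenly over genes. Of 16344 protein-coding genes with eligible sequence, 5590 (34.2%) had at least 1 region, and 2995 of these had exactly 1. The 445 genes with at least 5 held 2964 regions, 25.8% of all, and 40 genes had at least 10. The 20 genes with the most regions were Ptgis (24), Smndc1 (20), Runx3 (19), Asprv1 (16), Atp6v1g3 (15), Psd2 and Ccr1 (14 each), Fasl, S1pr1, Fgd2, Tmem121, Ifng, Blm, Irf2bpl, Abt1, Dusp2 and Id2 (13 each), and Trim27, Serpina12 and Atf7ip (12 each). Several are genes of NK cell identity, and others, such as Ptgis and Asprv1, are not known for a role there.

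**Figure D4:**
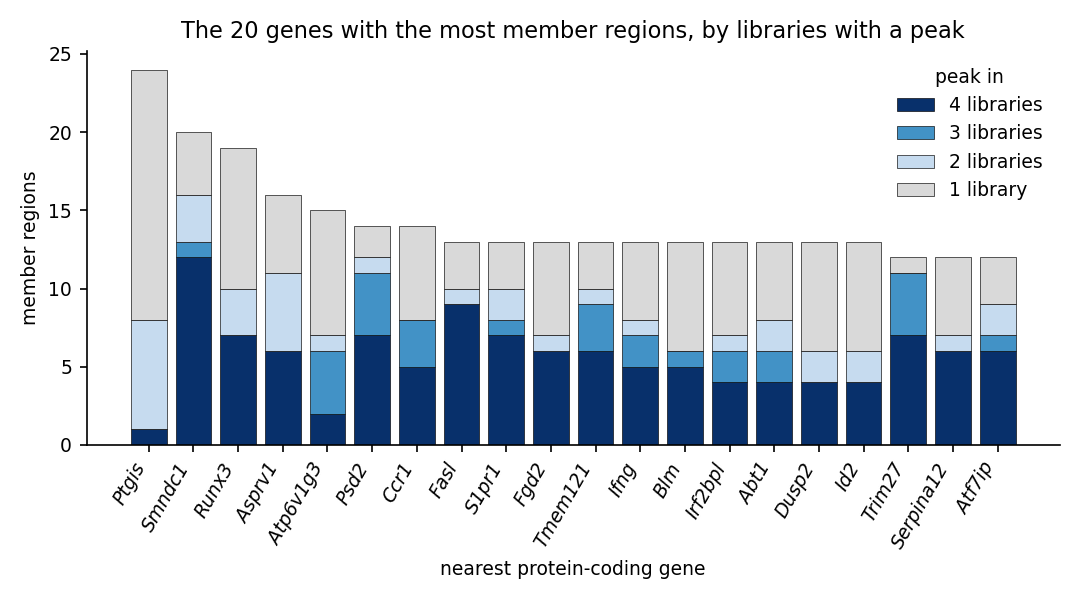
Number of gene-near intergenic (member) regions (y axis) for the 20 genes with the most regions (x axis), with each bar split by whether a region had a peak in 4, 3, 2 or 1 of the libraries. Ptgis has 24 regions with 1 in all 4 libraries, and Smndc1 has 20 with 12 in all 4.

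The list depends on the library with the most peaks and on regions seen once. Without replicate 3, 12 of the 20 genes remained among the 20 with the most regions, and 20, 18 and 18 did without replicates 1, 2 and 4. Counting only regions with a peak in at least 3 libraries, 10 of the 20 remained. That order began with Smndc1 at 13, Psd2 and Trim27 at 11, Ptma at 10 and Fasl and Tmem121 at 9.

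Ptgis, the gene of prostacyclin synthase, headed the full list through weak peaks of 2 libraries. Replicates 1 to 4 had 1, 10, 1 and 22 of its 24 regions, 14 were in replicate 4 alone and 7 in replicates 2 and 4 only. Without replicate 4 it had 10 regions. The only region in all 4 libraries had 0.893, 1.12, 1.16 and 0.961, and the peaks of the other 23 had signals from 0.131 to 0.481. What set this stretch of 14.3 kb upstream of the gene (chr2:167265201-167279503) apart in replicates 2 and 4 was not tested.

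Smndc1, a splicing factor gene, had the most regions common to the libraries. Of its 20, all upstream, 12 were in all 4 libraries, and replicates 1 to 4 held 14, 16, 18 and 13. The strongest, 34.1 kb upstream (chr19:53424661-53425060), had 5.91, 7.64, 12.4 and 8.83, and another at 30.5 kb had 5.39, 6.38, 12.5 and 7.63. Both were highest in replicate 3 and lowest in replicate 1. Regions 3.94 and 29.3 kb upstream held the CTCF consensus.

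Runx3, which encodes a RUNX factor needed for NK cell maturation, had 19 regions, all upstream, of which 7 were in all 4 libraries and 7, 8, 18 and 10 in replicates 1 to 4. The strongest, 39.8 kb upstream (chr4:135079901-135080900), had 3.56, 5.03, 10.3 and 6.24. A region at 43.6 kb that held both the RUNX and the E-box motif had 0.975, 1.21, 8.45 and 4.56. That is a wide spread: replicates 3 and 4 lay well above replicates 1 and 2.

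Fasl, which encodes the ligand by which NK cells trigger death receptors, had 13 regions, 9 of them in all 4 libraries, with 9, 10, 13 and 9 in the single libraries. Its strongest region, 21.5 kb from the 5' end and beyond the 3' end of the gene, is the sequence shown above with ETS matches on both strands and an AP-1 match. It had 3.68, 4.26, 10.4 and 7.16, and its neighbours 1 kb or less away had 1.88, 2.36, 4.75 and 2.94 on the far side and 2.41, 3.51, 7.57 and 3.39 on the near side. All were highest in replicate 3. Fasl's promoter was open in every library, at 2.36, 2.81, 5.47 and 1.87, below this distal region in each library.

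Ifng, which encodes the main NK cytokine, had 13 regions, 5 in all 4 libraries, with 7, 8, 13 and 5 in the single libraries. The strongest by mean signal, 21.6 kb upstream and shown above, had 1.84, 1.93, 4.68 and 1.36, and a region 28.1 kb from the 5' end on the other side had 1.90, 1.66, 4.31 and 1.77. A region 5.19 kb upstream with a T-box match had 1.50, 1.79, 3.99 and 0.971. These levels are near that of the promoter, at 1.84, 1.96, 3.57 and 1.36.

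Id2, an inhibitor of E-proteins required for innate lymphocytes, had 13 regions, 4 of them in all 4 libraries, with 4, 7, 12 and 4 in the single libraries. The strongest lay 1.62 kb upstream and held an E-box, at 3.45, 4.71, 6.81 and 4.44. S1pr1, the receptor by which lymphocytes leave tissues, also had 13, with 10, 10, 10 and 8, and its strongest region, 43.4 kb upstream, had 2.84, 3.23, 5.63 and 1.34. Dusp2, a phosphatase induced on activation, had 13, all upstream, with 4 in all 4 libraries.

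Psd2 had 14 regions, 7 in all 4 libraries, and its sequences are not shown. Ccr1, a chemokine receptor gene of myeloid cells that was counted among the myeloid genes, had 14 regions, all beyond its 3' end, while its own promoter had no peak in any library. The strongest, at 43.7 kb (chr9:123924701-123925040), had 6.13, 7.60, 9.59 and 9.36. Tmem121 had 13, all beyond its 3' end on the side of the immunoglobulin heavy chain constant genes, where a known B cell enhancer cluster lies. Its strongest, at 36.2 kb (chr12:113222121-113222340), had 7.92, 9.39, 10.3 and 6.22, similar in the 4 libraries. B cell markers had promoter peaks in these libraries, as given above, and their part in this result was not tested.

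Replicate 3 held the most regions at many of the 20 genes. Atp6v1g3, which encodes a subunit of a proton pump, had 15 regions with 5, 5, 14 and 6 in replicates 1 to 4, Asprv1, a protease gene of skin, 16 with 6, 6, 16 and 11, Serpina12, an adipokine gene, 12 with 6, 6, 12 and 7, Fgd2 13 with 6, 7, 12 and 7, and Dusp2 13 with 4, 4, 12 and 7. Dusp2 had an open promoter in every library. Atp6v1g3, Asprv1, Serpina12 and Fgd2, like Ccr1 and Atf7ip, had no promoter peak in any library. At Asprv1, Serpina12, Fgd2 and Atp6v1g3, 6, 6, 6 and 2 regions were nonetheless in all 4 libraries. Only the annotated 5' end of each gene was examined, so a peak at another transcript start was not counted. By the same measure the housekeeping gene Ywhaz had no promoter peak in any library either. Replicate 3 was the highest or level with the highest at Blm, a DNA helicase gene, with 7, 7, 10 and 6 of 13 regions, at Irf2bpl with 5, 8, 11 and 6 of 13, at Atf7ip, a chromatin cofactor gene, with 7, 9, 10 and 8 of 12, at Abt1 with 8, 9, 10 and 4 of 13 and at Trim27, a ubiquitin ligase gene, with 11, 11, 11 and 8 of 12. At these 20 genes, 2 regions near Ccr1 and 1 each near Asprv1, Tmem121 and Abt1 had at least 1 copy elsewhere on the assembled chromosomes. That near Asprv1 had 1454 copies and that near Tmem121 had 18. All of these regions were in at most 3 libraries.

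Gene lists show how the regions fall around genes of known function. The lists were drawn up with earlier results of these data known. A gene was counted if it had at least 1 region with a peak in at least 3 libraries, which held for 21.5% of all 16344 genes with eligible sequence. Of cytokine and trafficking receptors, 15 of 21 did, of cytotoxic granule and secreted factor genes 14 of 22, of NK receptors and adaptors 13 of 21 and of NK transcription factors 12 of 24. Of housekeeping genes 6 of 12 did, of T cell genes 7 of 18, of myeloid genes 7 of 18 and of B cell genes 5 of 16.

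Density per Mb of eligible sequence takes out the difference in space around the genes. Regions in at least 3 libraries numbered 65.8 per Mb at cytokine and trafficking receptors, 63.6 at cytotoxic genes, 61.6 at NK receptors and 51.5 at NK transcription factors, against 14.7 over all genes. Housekeeping genes, at 76.1, were as dense. Myeloid genes had 34.1, B cell genes 23.0 and T cell genes 19.6. The 4 NK lists thus lay above the lists of other blood cells but not above genes used in all cells.

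**Figure D5:**
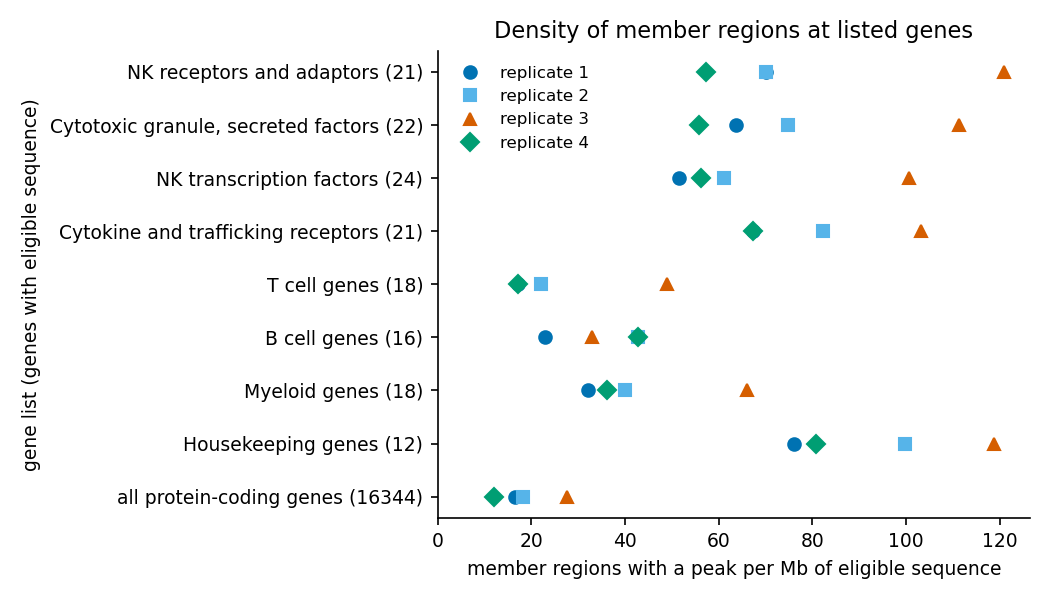
Gene-near intergenic (member) regions with a peak per Mb of eligible sequence (x axis) around the genes of 8 lists and all protein-coding genes (y axis), with 1 point for each of the 4 libraries. The points of all genes lie between 12.1 and 27.5, those of the 4 NK lists between 51.5 and 121, and those of the B cell list between 23.0 and 42.7.

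Per library, NK receptors had 70.1, 70.1, 121 and 57.3 regions per Mb in replicates 1 to 4, cytotoxic genes 63.6, 74.8, 111 and 55.7, NK transcription factors 51.5, 61.1, 101 and 56.3, and all genes 16.6, 18.1, 27.5 and 12.1. All 4 libraries put the NK lists above all genes. B cell genes had 23.0, 42.7, 32.8 and 42.7, highest in replicates 2 and 4, the libraries in which 5 of 6 B cell markers had a promoter peak. The part of B cells in these values was not tested.

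Among NK receptors and adaptors, Klrb1c, the gene of the surface receptor NK1.1, had 7 regions with 4 in all 4 libraries, all beyond its 3' end. The strongest, 24.8 kb from its 5' end (chr6:128764141-128764400), had 8.03, 6.73, 13.5 and 7.97, while its promoter had a peak in replicate 3 only. Klrb1b had 7 upstream with 4 in all 4 libraries, and the strongest of these, at 13.2 kb, had 6.04, 7.14, 10.5 and 5.20. Klrg1, an inhibitory receptor of mature NK cells, had no promoter peak in any library and 9 regions, 4 of them in at least 3 libraries. The only 1 in all 4, at 23.7 kb, held the CTCF and RUNX motifs and had 2.60, 2.91, 2.93 and 1.48. Tyrobp, the signalling adaptor DAP12, had 5 upstream, and that at 3.60 kb, with ETS and IRF matches, had 1.60, 1.31, 4.29 and 1.21. The Klr genes are a family of similar copies, so peaks there may share reads.

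Among cytotoxic and secreted factor genes beside Fasl and Ifng, Ccl5, a chemokine of activated NK cells, had 8 regions, all upstream and all in at least 3 libraries. The strongest, 4.54 kb upstream with a RUNX match (chr11:83535061-83535380), had 4.75, 4.74, 12.2 and 5.38, above the promoter at 2.24, 2.45, 6.27 and 3.73. Gzmb, which encodes the protease granzyme B, had 8 upstream with 3 in all 4 libraries. At 22.1 kb (chr14:56284361-56284680), with AP-1 and E-box matches, the signals were 1.79, 2.00, 6.51 and 2.07, and at 34.6 kb, with an ETS match, 1.81, 1.94, 5.42 and 1.87. Replicate 3 stood far above the others at both, and the other 3 were close together.

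Of the transcription factors, Tbx21, which encodes the T-box factor T-bet, had 7 regions, 5 in all 4 libraries. Its strongest by mean signal, at 2.91 and 8.29 kb upstream, had 2.70, 2.69, 4.77 and 1.22 and 2.53, 2.86, 4.71 and 2.24. Its promoter had a peak only in replicates 2 and 3. Nfil3, a factor needed for NK cell development, had 10 upstream, and the strongest, at 1.79 kb, had 5.93, 7.27, 9.25 and 3.30. Bhlhe40, a basic helix-loop-helix factor, had 7, all beyond its 3' end, of which that at 27.8 kb had 0.881, 1.10, 6.17 and 3.17. Tox, Runx1, Gata3 and Stat4 had no region.

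Of the receptors beside S1pr1, Cxcr4 had 11 regions with 6 in all 4 libraries, and its strongest, 22.5 kb upstream and shown above with its ETS match, had 2.81, 2.95, 6.79 and 2.91. Il21r, the receptor of interleukin 21, had 7 with 4 in all 4 libraries, the strongest with 3.07, 3.59, 7.48 and 5.78 at 21.7 kb upstream. Ccr7, the receptor that guides lymphocytes to lymph nodes, had 12 but only 2 in all 4 libraries, with 2, 9, 8 and 4 in replicates 1 to 4. That uneven spread differs from that of the other receptors named here, each of which had most regions in replicate 3 or as many there as elsewhere.

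In the lists of other cells the counts were small. Bcl11b, a T cell factor, had 4 regions upstream, 1 of them in all 4 libraries at 5.25, 5.18, 8.34 and 3.47. Cd72 of the B cell list had 2 at 1.93 and 2.39 kb upstream, the nearer with 2.69, 3.33, 6.32 and 2.59. Xbp1, a factor of plasma cells, had 3 upstream, of which 1 with a CTCF match had 2.82, 2.76, 3.84 and 1.66. Ly6c2 and Adgre1 of the myeloid list had 4 and 5, and neither had a promoter peak in any library. Actb, the housekeeping gene of beta-actin, had 8 upstream, 4 of them in all 4 libraries, and the strongest, at 14.0 kb, had 5.35, 6.50, 13.0 and 8.38.

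Signal in replicate 3 relative to replicate 1 differed between kinds of region. The unit of the signal is not stated, so a ratio between libraries has meaning only when set beside the ratio of other regions in the same pair. Over all 3694 regions in all 4 libraries the median ratio was 1.50, and 77.8% were highest in replicate 3. Around cytotoxic genes it was 2.54 (31 regions, all highest in replicate 3), around NK transcription factors 2.14 (38), around cytokine and trafficking receptors 1.97 (36) and around NK receptors 1.79 (23). Housekeeping genes had 1.48 (15), myeloid genes 1.41 (12), B cell genes 1.27 (6) and T cell genes 1.20 (5). The 4 NK lists thus had ratios above that of all regions, and the other 4 lists had ratios below it.

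Sequence classes differed as well. The ratio was 1.27 at regions with the CTCF consensus, 1.80 with ETS, 2.03 with RUNX and 2.15 with AP-1 matches, 1.50 at tRNA genes and 1.46 at CpG-rich regions. For comparison it was 1.71 over intronic and 1.53 over promoter regions. Fewer B cell marker promoters had a peak in replicate 3 (2 of 6) than in replicates 1, 2 and 4, and 10 of 10 NK marker promoters had one there, against 7, 8 and 6. Because all 4 libraries carry the same labels, library quality and the makeup of the cells cannot be told apart here, and no test was made of these ratios.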

How the data were processed

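DNase-seq peaks, footprints and FDR-listed bases of 4 NK cell libraries were used as the authors deposited them. Per the file headers and the labels, each file was made from 1 library on mm10. No source used here gives the aligner, the callers, their settings or the read depth, so no counting interval was computed and precision is given as the SD over 4 libraries. The authors' signal in column 7 of the peak lists has no stated unit. The deposited FDR runs to 0.05, and the deposited footprints carry a constant 0.01 as their p-value.

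The longer of each library's 2 peak lists was used, and touching peaks were merged. Genes came from GENCODE vM21 on GRCm38.p6 (mm10), and tRNA genes, enhancers, transcripts and sequence from RefSeq of the same assembly. A region's signal in a library is the highest signal of its peaks. Promoters are open if a peak lies within 1 kb of the annotated gene 5' end. Other transcript starts of a gene count only in the run with transcript 5' ends. Motifs were 19 fixed consensus sequences, searched for in the central 150 bp. Copies were sought with BLAST+ 2.17.0+ (at least 95% identity over at least 70% of a region, a limit chosen after seeing the data). Analyses used Python 3.11.15, numpy 2.4.6 and pandas 2.3.3 and were tested on simulated data.

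Within each library, gene-near intergenic regions were compared with intronic regions, near with far and open with closed promoters. The exact two-sided sign-flip permutation test over 4 libraries has 16 sign patterns. Each of 6 measures was recomputed with the shorter peak lists, without each library, with the same number of strongest peaks, with transcript 5' ends and with other distance limits. The named genes are the 20 with the most regions, the nearest genes of the 10 strongest regions in all 4 libraries, and in each list up to 4 genes with the most regions in at least 3 libraries and with at least 2 of them. Genes outside this rule, such as Rnase12, Stard10, Psrc1, Fos, Btg2, Wnt10a, Ptma, Foxk1 and the list genes without a region, were chosen after their values were seen. The members and lists were chosen with earlier results of these data known. Some genes that the rule or the marker lists name are not reported here. Sex chromosomes were left out, and no sequence of chromosome 18 is shown.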

Additional observations from a re-analysis of the deposited data

Results flagged for a closer look

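In groups of 4 libraries, a value was singled out where the gap to the nearest of the other 3 exceeded Dixon's critical value of 0.829 as a share of the range. Of 45 groups tested, 7 were singled out, and chance alone gives about 1 in 20.

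Replicate 3 had the lowest ratio of near to far density, 1.39, where the others had 1.45, 1.47 and 1.46. The region near Shf, which overlaps a tRNA-His gene, had a signal of 20.4 in replicate 3 and 12.7, 12.7 and 12.3 in the others. Replicate 3 also had the most regions at 3 genes: Atp6v1g3, with 14 against 5, 5 and 6, Fgd2, with 12 against 6, 7 and 7, and Serpina12, with 12 against 6, 6 and 7. Replicate 4 had the fewest at S1pr1, with 8 against 10 in each other library, and at Trim27, with 8 against 11 in each, where 9 of 12 regions overlap tRNA genes. Replicate 3 has the most peaks of the libraries and replicate 4 the fewest, and their part in these values was not tested.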

How the results depend on the processing

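No comparison changed direction under any alternative run, and 2 main values moved by more than 1.5 times. With the same number of strongest peaks from each library, 35219, the regions numbered 7071 in place of 11499. Among regions in all 4 libraries only, a check added after seeing the data, the footprint difference from introns was 2.56 percentage points in place of 4.84. Over the other alternatives they numbered 8030 (shorter peak lists) to 11774 (transcript 5' ends), and 8118 (without replicate 3) to 11277 (without replicate 4) when a library was left out.

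Leaving out 1 library gave differences from introns of 5.68 to 7.74 percentage points in sharing, 4.73 to 5.11 in footprints and 4.67 to 4.78 in CTCF. It gave ratios of 1.15 to 1.19 for signal, 1.44 to 1.47 for near against far density and 2.64 to 2.68 for open against closed promoters. With 3 libraries the smallest p is 0.25. Over all alternatives the ranges were 4.60 to 7.74 (sharing), 1.10 to 1.24 (signal), 2.56 to 6.22 (footprints), 1.21 to 1.64 (near against far), 2.61 to 3.00 (open against closed) and 4.34 to 5.29 (CTCF). The genes with the most regions were the least stable, with 12 of 20 kept without replicate 3 and 10 of 20 when ranked by regions in at least 3 libraries; both of these checks were added after seeing the data. The lower number of peaks in replicate 4 limits how many regions can be in all 4 libraries. Each comparison was made within libraries. Samples could not be paired with each other, because replicate numbers can pair samples only across groups and the 4 libraries form a single group.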
